A study of Brassica napus with 12 samples.

Results

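The 150 genes described here were those with the largest drop in mature leaves of Brassica napus given silicon (Si), among genes that did not also lie lower in every silicon-fed root library. A gene was eligible when it averaged at least 1 CPM (counts scaled to a total of 1000000 gene counts per library) over the 6 leaf libraries and was not on chromosome C03, which left 35366 of the 52962 genes in the files. It then had to lie lower in all 3 Si leaf libraries than in all 3 no-Si leaf libraries, while its 3 Si root libraries did not all lie below its 3 no-Si root libraries, which 909 genes met. These were ranked by the log2 ratio of the mean Si CPM to the mean no-Si CPM in leaves, with 0.5 CPM added to each, and the lowest 150 were kept. The members were thus chosen by their leaf values with and without Si and by the order of their root libraries, and those values are given below as a description. Where counts of tested genes in these contrasts are given, they stand beside the share over all genes and nothing is read from them.

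RNA was sequenced from roots and mature leaves of wild-type plants of the variety Citizzen, grown hydroponically. One set of plants received 1.7 mM Si as sodium metasilicate for 1 week from the emergence of leaf 4, and the other received 3.4 mM NaCl over that week, so that both had the added sodium and the no-Si plants alone had the added chloride. Each of the 4 groups (leaf no Si, leaf Si, root no Si, root Si) held 3 libraries, with 14429867 to 21792206 gene counts in leaves and 15616881 to 19330076 in roots. The labels do not say how many plants a library held, nor that a root and a leaf library with one number came from the same plants. P-values here weigh differences against the spread between these libraries. The planting date in the labels was 12 February for all no-Si libraries and for leaf Si replicate 3, and 21 March for the other Si libraries. The harvest date was 28 March throughout. The growth protocol in the labels, in which seedlings germinated for 4 days and then had nutrient solution for 10 days before the supply, is longer than the span from 21 March, so the meaning of the date is uncertain. In roots the date and Si cannot be told apart.

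Silicon enters plants as silicic acid, moves with the water stream and can be deposited in cell walls, and it is known for easing drought, salt and nutrient stress. Plants of the cabbage family are generally counted among those that accumulate little of it. A mature leaf is a photosynthetic source organ that exports sugars, while roots take up water, ions and silicic acid. Brassica napus is an allotetraploid that carries an A and a C subgenome, so most genes have a near-identical copy in the other subgenome, and where reads fit both copies the level of either is uncertain. The identifiers give the chromosome of a gene but no name, and 9 of the 150 members equalled a symbol in the RefSeq gene table, all listed as protein coding and without a function. The members are therefore described by identifier, level and pattern, and the tissue labels could not be checked against named marker genes.

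In leaves the summed level of the 150 members was 9215, 6547 and 8226 CPM in the 3 no-Si libraries and 4445, 4802 and 3716 CPM in the 3 Si libraries. In roots the same sum was 1444, 1278 and 1281 CPM without Si and 1321, 1271 and 1381 CPM with Si. The leaf groups did not overlap, which the rule fixed gene by gene, and the root groups did. In bulk RNA, fewer cells of a type and less RNA per cell cannot be told apart.

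**Figure D1:**
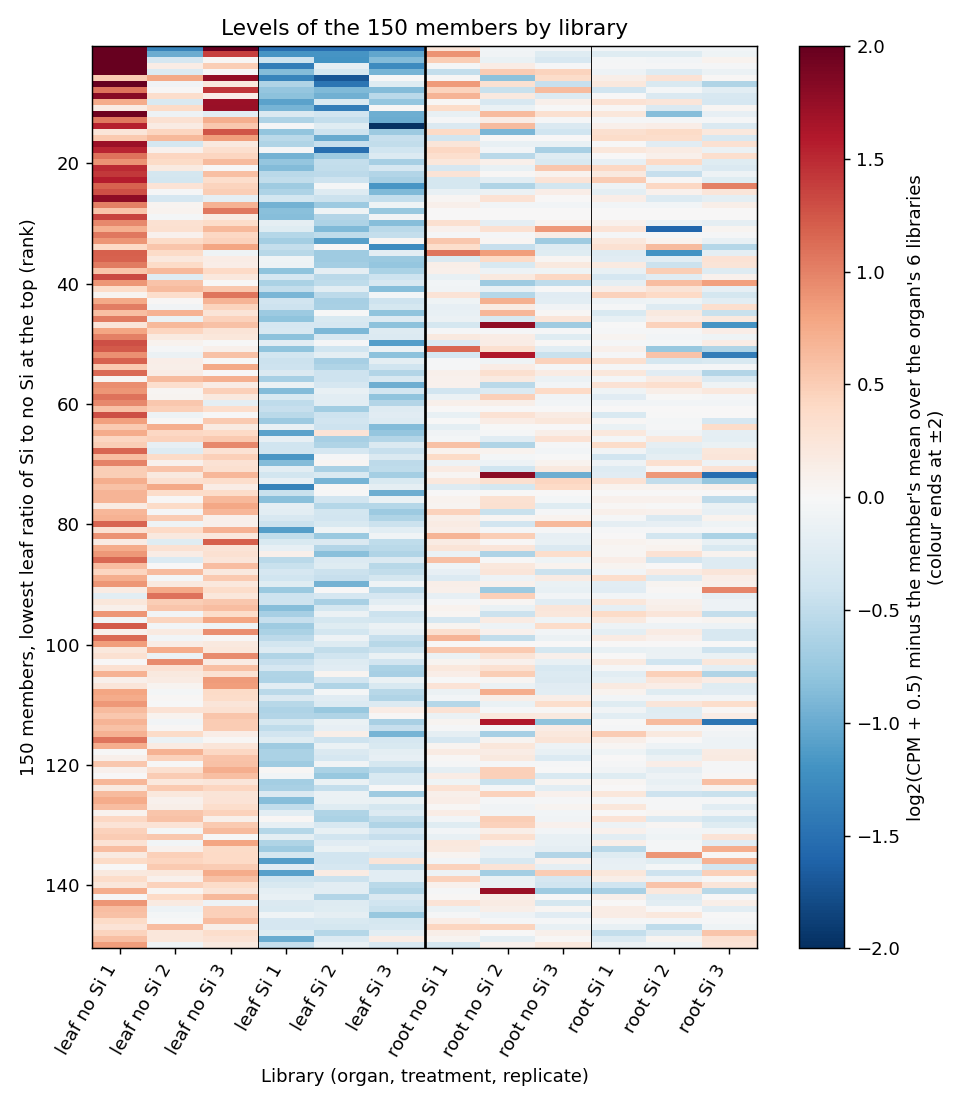
Level of each of the 150 members (rows, ranked from the lowest leaf ratio at the top) in the 12 libraries (columns), as log2(CPM + 0.5) minus the member's mean over the 6 libraries of that organ, with the colour ending at ±2. The 3 no-Si leaf columns are above the 3 Si leaf columns for every member, as the rule required; leaf no Si replicate 1 is the highest leaf library for 90 members, and the summed root levels of the 2 treatments overlap.

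Complete separation of this kind was found for 991 of the 35366 eligible genes in the direction lower with Si (2.8%) and for 2475 in the direction higher with Si (7%). Another 82 genes met the leaf part of the rule but also lay lower in every Si root library. Among the members the leaf log2 ratio ran from -3.94 to -0.67, with a median of -0.90, which is a 1.87-fold lower level with Si. The median of all eligible genes was 0.05. The ratio was 2-fold or more in 44 members and 4-fold or more in 4. At the end of the ranking the last members were BnaCnng02620D and BnaAnng17900D, both at -0.67, and BnaC04g16900D, also at -0.67. The first genes left out were BnaA09g07540D at -0.67, BnaA02g10260D at -0.67 and BnaA01g01550D at -0.67, so the boundary falls within a continuous series of values.

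The fitted Si difference in leaves had a median of -1.02 on the log2 scale over the 147 members that passed the filter on low counts, against -0.00 over all genes tested. With edgeR and Benjamini-Hochberg adjustment 0 of these 147 members passed 0.05, where 0.00731% of all genes tested did so in the direction lower with Si. DESeq2 called 23 of the 150, against 0.0741% of the genes it tested. The rule used this contrast, so nothing is read from these counts.

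A few members with the highest CPM made up most of the summed CPM. The first 5 of them are given here. BnaC05g48870D was at 1467, 1185 and 1650 CPM in leaves without Si (1434 ± 234, SD, n = 3) and at 800.3, 838.6 and 647.3 CPM with Si (762.1 ± 101, SD, n = 3). BnaC04g34390D was at 1310, 792.9 and 1166 CPM without Si and 646.7, 750.2 and 523.9 CPM with Si. The lowest no-Si library of BnaC04g34390D lay close to its highest Si library, while BnaC05g48870D had a wider gap. BnaA04g27920D was at 1450, 706.0 and 1158 CPM against 596.3, 672.9 and 432.6 CPM, and BnaA06g07790D at 1240, 771.1 and 891.5 CPM against 651.1, 646.1 and 493.0 CPM. BnaA04g08570D was at 776.2, 1022 and 985.0 CPM against 519.7, 518.9 and 370.9 CPM. These 5 genes shared a pattern in the Si leaves, in which replicate 3 was the lowest library of each. The next, BnaC02g05730D, was at 331.6, 235.0 and 252.0 CPM without Si and 135.1, 211.5 and 129.3 CPM with Si.

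These 6 genes belonged to a group of 8 members that were nearly limited to leaves, with at least 100 CPM in leaves and a root mean under 1% of that. The others were BnaA07g28910D and BnaA07g30320D. The thresholds of this group fix a large leaf minus root difference, so it is given as a description without p-values. On the log2 scale that difference ran, for the 6 genes without Si, from 9.89 (SE 0.71) in BnaA06g07790D to 10.34 (SE 0.50) in BnaC02g05730D. Without root no Si replicate 2, which held most of their no-Si root reads, the values were 11.41 in BnaA06g07790D, 11.52 in BnaA04g27920D and 12.34 in BnaA04g08570D. Together the 8 held 74.0% to 79.8% of the members' summed leaf level, depending on the library. The remaining 142 members had a leaf mean between 1.03 and 99.0 CPM.

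The largest leaf ratios belonged to genes with few counts, and several rested on 1 or 2 libraries. BnaA02g10740D had 246, 1 and 189 counts in the no-Si leaves and 0 in each Si leaf library. Its group total of 436 counts against 0 is at least a 156-fold higher level without Si, taking 3 counts over the Si group as the limit, but leaf no Si replicate 2 lay almost as low as the Si leaves. BnaCnng18320D had the same shape, at 8.76, 0.0693 and 2.42 CPM without Si and 0, 0 and 0.0492 CPM with Si. Its 237 counts against 1, pooled over the libraries of each group, give a ratio of 255. The rule chose both genes by these leaf values, so this ratio and the 156-fold limit are descriptions only.

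Leaf no Si replicate 1 stood far above its group for the next members. BnaA07g29070D was at 28.2, 2.77 and 3.71 CPM without Si and 2.60, 1.31 and 1.77 CPM with Si. BnaA03g54590D was at 44.4, 10.4 and 13.3 CPM against 3.29, 8.17 and 3.59 CPM. BnaA03g07520D was at 15.9, 2.01 and 2.52 CPM against 1.15, 1.88 and 1.08 CPM. Without that library the no-Si and Si leaves of BnaA07g29070D and BnaA03g07520D are close to each other. BnaA10g14320D (18.5, 3.53 and 4.40 CPM against 2.31, 1.03 and 3.10 CPM), BnaC09g36670D (17.4, 5.96 and 5.05 CPM against 2.36, 2.11 and 3.00 CPM) and BnaC06g41060D (6.98, 1.32 and 1.18 CPM against 1.10, 0.986 and 0.492 CPM) had the same high library.

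In the remaining 4 of the 12 lowest, replicate 3 was the high library of the no-Si leaves. BnaCnng68980D was at 5.78, 6.93 and 14.4 CPM without Si and 1.27, 0.845 and 3.88 CPM with Si, and BnaA03g10550D at 3.12, 3.74 and 10.3 CPM against 1.21, 0.751 and 2.80 CPM. BnaA01g07090D was at 6.93, 3.12 and 14.1 CPM against 1.61, 3.10 and 2.11 CPM, so its lowest no-Si and highest Si libraries nearly touched. BnaA03g31870D was at 2.57, 0.970 and 3.38 CPM against 0.346, 0.282 and 0.295 CPM, with its 3 Si libraries close together.

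**Figure D2:**
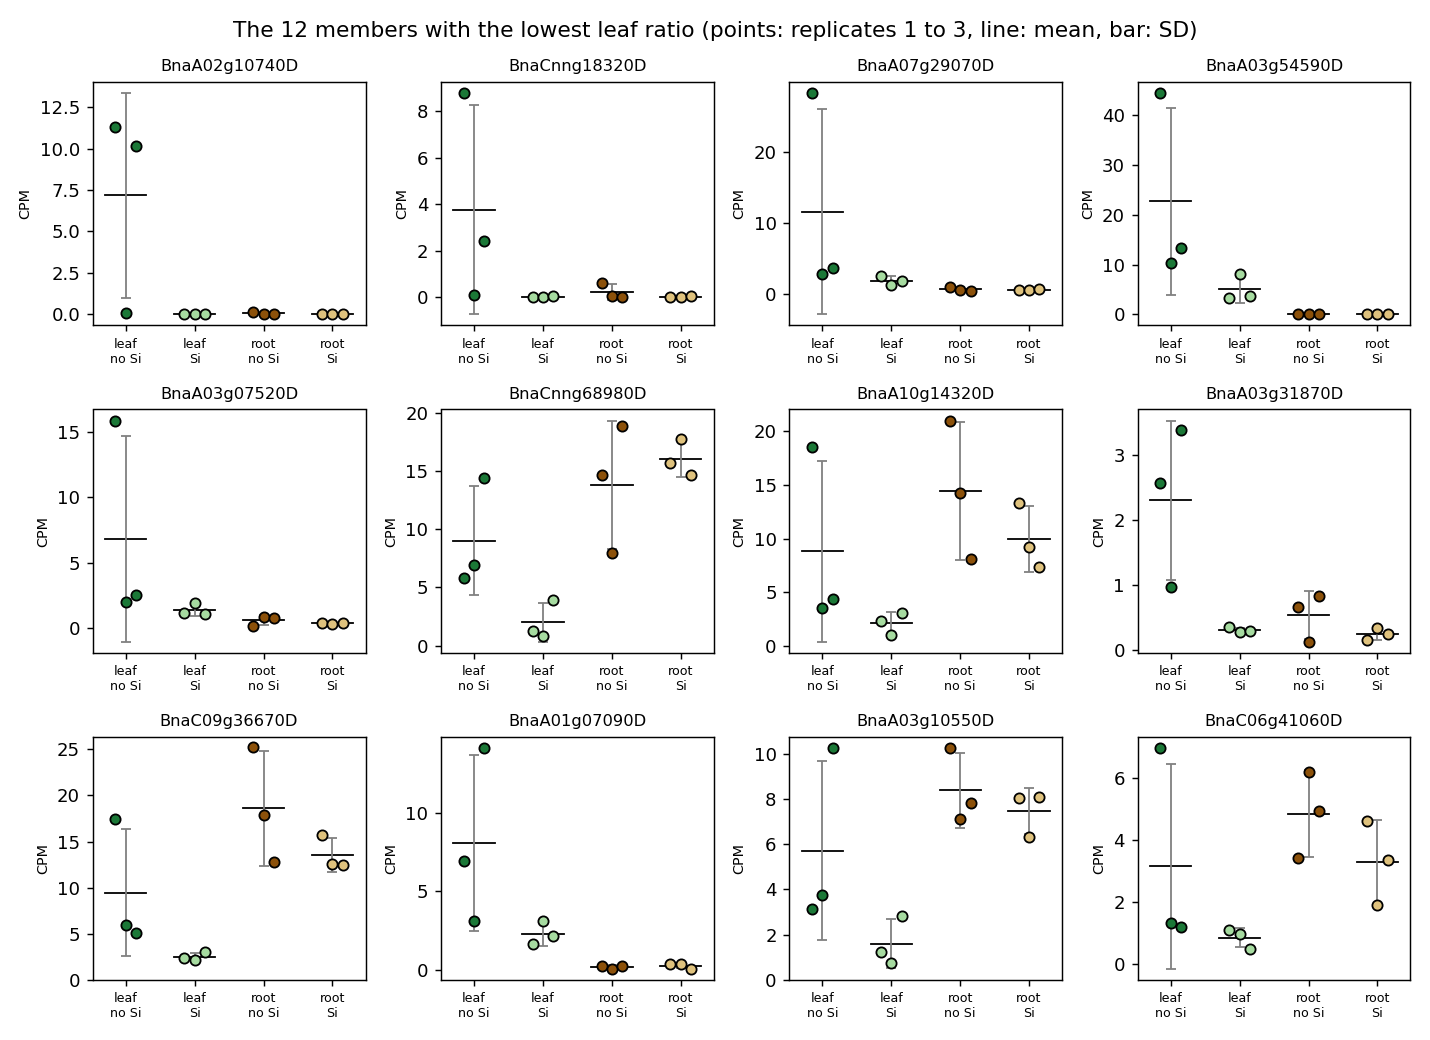
CPM of the 12 members with the lowest leaf ratio in the 4 groups; points are replicates 1 to 3 from left to right, the line is the mean and the bar 1 SD. In most panels a single no-Si leaf library, often replicate 1, lies far above the other no-Si leaves, as for BnaA07g29070D at 28.2 CPM against 2.77 and 3.71 CPM.

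The same library stood out across the members. Leaf no Si replicate 1 was the highest of its group for 90 members (60%), replicate 2 for 22 (14.7%) and replicate 3 for 38 (25.3%), while among eligible genes the shares were 48.0%, 30.0% and 22.03%. It was 2-fold or more above the mean of the other no-Si leaves for 31 members, which held for 3.86% of eligible genes. The ranking used the mean of the no-Si leaves, which 1 high library raises, so these shares are descriptions of what the rule chose. Leaving out leaf no Si replicate 1 changed the median leaf log2 ratio of the members from -0.90 to -0.75. Leaving out another leaf library gave medians between -0.98 and -0.87. The membership itself moved far more: ranking again without leaf Si replicate 1 kept 35 of the 150 genes, and without leaf no Si replicate 2 it kept 52. With a library left out the separation in leaves is easier to meet, so other genes can enter and displace members. Leaf no Si replicate 2 had the lowest summed level of its group and 15.6% unmapped reads, against 5.36% to 9.51% in the other 11 libraries. The part of this in the membership was not tested. Leaf Si replicate 3, the Si leaf library with the earlier planting date, gave a median log2 ratio of -0.91 against the no-Si leaves, and replicates 1 and 2 together gave -0.88. The rule placed each Si leaf library below every no-Si one for each member, so both signs were fixed. Nothing is read from them about the planting date.

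The distance between the groups was small for most members. The lowest no-Si leaf library lay above the highest Si leaf library by a median of 0.23 on the log2 scale, by 0.5 or more in 20 members and by less than 0.1 in 35. The widest gap was 0.98, in BnaA02g30740D. This gene was at 5.83, 6.44 and 7.41 CPM in leaves without Si (6.56 ± 0.798, SD, n = 3) and at 2.54, 1.69 and 2.71 CPM with Si (2.31 ± 0.544, SD, n = 3). BnaC06g32310D followed with a gap of 0.85, at 13.3, 9.15 and 10.9 CPM against 3.81, 4.83 and 4.18 CPM. Both had tight replicates in both groups, unlike most of the 12 members with the lowest ratios.

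In roots the members covered a wide range of levels. The root mean was under 0.1 CPM for 23 members (15.3%, against 2.36% of eligible genes), between 0.1 and 1 CPM for 29 (19.3% against 5.36%) and at least 1 CPM for 98 (65.3% against 92.3%). No root library held a read of 5 members, and 22 others had 1 to 12 root reads in all. A level of 3 counts, the limit that a count of 0 allows, correspond to 0.155 to 0.192 CPM in a root library, so a decrease with Si in roots was not detectable for these genes at this depth. In all, 52 of the 150 members had a root mean under 1 CPM.

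Among the 98 members at 1 CPM or more in roots, 57 had a lower mean with Si (58.2%) and 41 a higher one. Of all eligible genes at that root level 40.1% had a lower mean. The median root log2 ratio was -0.05 over these members and 0.04 over the eligible genes, and the members ran from -1.14 to 0.95. Of the 9 pairings of a Si with a no-Si root library, 8 were in the direction lower with Si for 10 members (10.2%, against 4.09% of eligible genes). At least 6 of the 9 were so for 42 members (42.9% against 28.3%). The rule removed genes with all 9 pairings lower, so these counts describe what it left. The root log2 ratio was -0.5 or lower in 12 members, among them the leaf-limited BnaC05g48870D, BnaC04g34390D, BnaA04g27920D and BnaA06g07790D. Most no-Si root reads of these leaf-limited genes came from root no Si replicate 2. It held 81, 66, 62 and 63 counts in that order, against 5 to 21 in the other no-Si root libraries. The root ratio was at least as low as the leaf ratio in 2 members.

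Those 2 were BnaC01g06390D and BnaA06g07790D. BnaC01g06390D was at 25.7, 21.8 and 10.1 CPM in roots without Si and 9.98, 4.96 and 10.4 CPM with Si, a log2 ratio of -1.14 in roots against -1.07 in leaves. A single Si root library at 10.4 CPM, just above the lowest no-Si root library, kept this gene from counting as lower in both organs. BnaA06g07790D had 15, 63 and 5 root counts without Si and 7, 19 and 7 with Si, so its root ratio of -0.99 rested on few reads and 1 high library. BnaA03g26790D, at 20.6, 11.3 and 7.68 CPM in roots without Si and 9.67, 5.13 and 5.75 CPM with Si, had the next lowest root ratio, at -0.90.

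The root difference over all genes was fitted for 102 members. With edgeR and Benjamini-Hochberg adjustment 0 of the 102 passed 0.05 (0.00235% of all genes tested did), and 6 (5.88%) had an unadjusted p under 0.05, against 8.86% of all genes tested. Their fitted median was -0.08 on the log2 scale. DESeq2 called 1 member, BnaC01g06390D, and 1.11% of the genes it tested. The rule used the order of these root libraries, so nothing is read from these counts.

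At the other end, 2 members had every Si root library above every no-Si root library, where 7.48% of all eligible genes and 7.78% of those at 1 CPM or more in roots did. BnaA01g21670D was at 1.76, 1.39 and 1.73 CPM in roots without Si and 2.17, 3.34 and 5.27 CPM with Si, a log2 ratio of 0.95. In leaves it was at 6.06, 2.98 and 3.44 CPM without Si and 1.27, 2.30 and 0.787 CPM with Si. BnaC02g19910D was at 9.25, 8.73 and 8.004 CPM in roots without Si and 10.4, 10.9 and 9.35 CPM with Si, a log2 ratio of 0.23. The 2 groups of its root libraries nearly touched. BnaA05g26040D, with a root log2 ratio of 0.87, and BnaAnng00460D, with 0.58, had the next highest values and overlapping root groups.

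**Figure D3:**
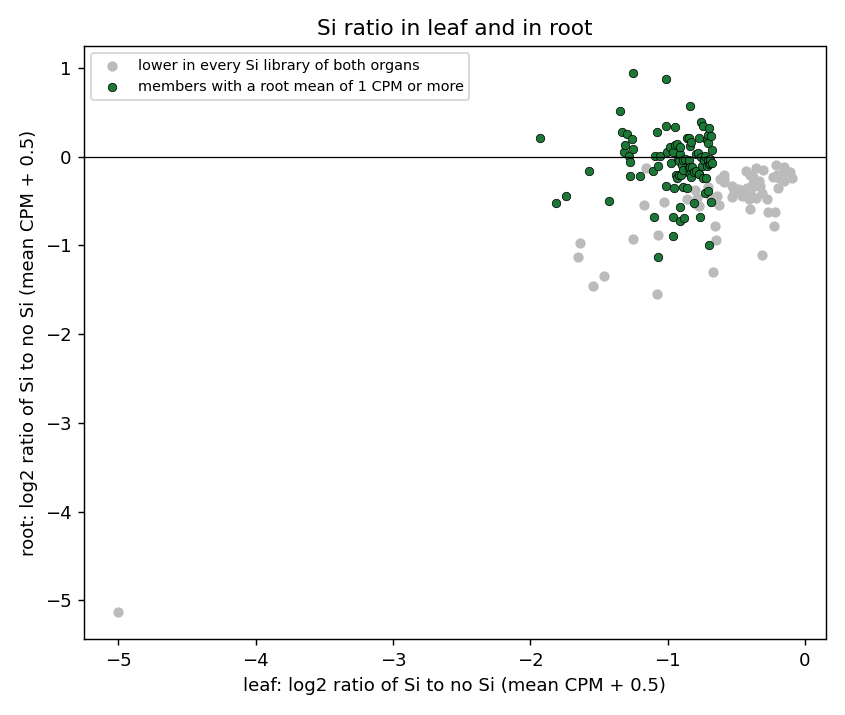
Log2 ratio of Si to no Si in leaves (horizontal) and roots (vertical), each from mean CPM + 0.5, for the 98 members at 1 CPM or more in roots (green) and for the genes at that root level that lay lower in every Si library of both organs (grey). The green points spread to both sides of 0 in roots, from -1.14 to 0.95; the cut at the right of the green points is the end of the ranking.

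Whether leaf and root responses differed was tested over all 12 libraries as an interaction of organ and Si. With edgeR and Benjamini-Hochberg adjustment, 0 of 45222 genes passed 0.05 (0%), and so 0 of the 149 members tested. At an unadjusted p under 0.05 there were 1823 genes in all, 70 of them members, a number that the rule shaped since it chose genes by the leaf values and removed some by the root values. The name "lower in leaves only" is thus a statement about the order of libraries and not about a tested difference between organs.

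The difference between organs was not used by the rule, although it shares the leaf libraries. The rule set a level minimum in leaves only, and its root part could not drop a gene without reads in a no-Si root library. Genes nearly absent from roots could thus stay in more easily. The rule puts each member higher in no-Si than in Si leaves, which raises the organ difference without Si and lowers the one with Si, so both are given. Without Si, 108 of 149 members (72.5%) were higher in leaves by edgeR at a Benjamini-Hochberg adjusted p under 0.05, where 34.1% of all genes tested and 39.2% of the eligible genes were. In the other direction 15 members (10.1%) were lower in leaves, against 34% of all genes and 27.2% of the eligible genes, and 26 were not called. The median log2 difference, leaf minus root, was 2.42 over the members, -0.02 over all genes and 0.15 over the eligible genes. Without leaf no Si replicate 1 the count lower in leaves was 24.

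With Si, 85 of the 149 members (57.0%) were higher in leaves, against 34.4% of all genes and 39.5% of the eligible genes. Another 37 (24.8%) were lower, against 34% and 27.1%, and 27 were not called. The median was 1.42 over the members and -0.01 over all genes. Both medians were the same when members with no root read in a group (7 without Si and 16 with Si) were put at their lower bound. All 85 members higher in leaves with Si were also higher without Si, and all 15 lower in leaves without Si were also lower with Si.

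The split depended on the scaling. With library totals in place of TMM factors the median of all genes moved to -0.77 without Si and -0.73 with Si. On that scale 90 members were higher and 31 lower in leaves without Si, against 20.5% and 59.1% of all genes, and 74 were higher and 49 lower with Si, against 20.4% and 58.5% of all genes. The members' median was then 1.68 without Si and 0.70 with Si.

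**Figure D4:**
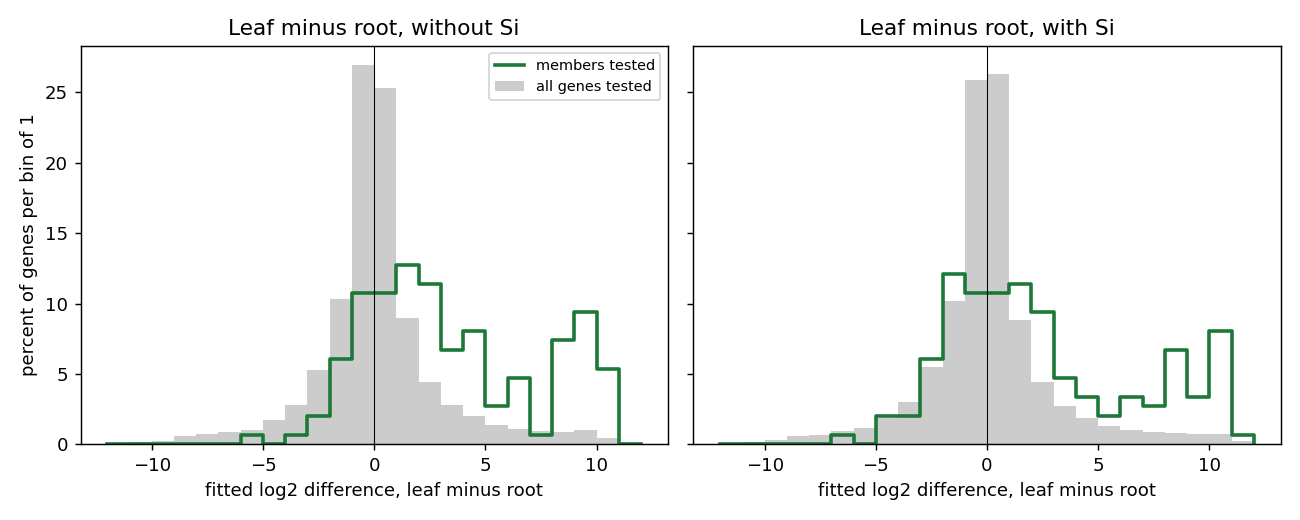
Distribution of the fitted log2 difference between leaf and root (leaf minus root, bins of 1), without Si (left) and with Si (right), for all 45222 genes tested (grey) and the 149 members tested (green line), each as a percentage. All genes centre near 0 while the members are shifted to the right (medians 2.42 and 1.42) with a second group of genes near 10; for genes with almost no root read the fitted value depends on the prior count.

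The 82 genes lower with Si in every library of both organs can be set beside the members but are not matched to them. They were not cut by leaf ratio, which ran from -5.00 to -0.09. A gene without reads in a no-Si root library could not be among the 82, which by itself lowers their leaf minus root difference. Of these, 45 (54.9%) were higher and 20 lower in leaves without Si, with a median log2 difference of 0.70, and 42 (51.2%) were higher and 21 lower with Si, with a median of 0.53. The difference between these genes and the members was not tested.

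The members most limited to leaves had next to no root reads. The 4 named here were picked for the largest organ difference without Si, so their values are descriptions. BnaA09g13840D was at 27.4, 29.2 and 36.0 CPM in leaves without Si and 9.98, 20.7 and 18.9 CPM with Si, and had 1 root read in all. Its 1689 leaf counts against 1 root count without Si give a ratio of 1527 (exact 95% interval 274 to 60352, counting error only). BnaC06g25850D, at 32.4, 16.4 and 20.7 CPM in leaves without Si and 10.2, 10.7 and 10.9 CPM with Si, also had 1 root read in all. BnaA09g17750D, at 31.98, 16.9 and 19.7 CPM against 8.48, 16.3 and 10.9 CPM, had 1 root read without Si and 3 with Si. BnaA03g54590D, described above, had 1 root read. All 4 were therefore expressed in leaves at a level that roots did not approach under either treatment.

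At the opposite end were members that are mainly root genes, with a low leaf level. BnaA06g34320D was at 187.9, 213.3 and 215.9 CPM in roots without Si and 194.5, 210.0 and 275.4 CPM with Si, but at 3.12, 3.67 and 2.36 CPM in leaves without Si and 1.79, 1.41 and 0.885 CPM with Si. Its leaf minus root log2 difference was -5.33 (SE 0.25) without Si and -6.65 (SE 0.27) with Si. The gene was picked for having the lowest such difference without Si, so these values are descriptions and no p-value is given. BnaA01g35340D was at 54.3, 36.8 and 55.5 CPM in roots without Si and 40.7, 49.4 and 59.5 CPM with Si, and at 2.48, 2.63 and 2.15 CPM against 1.33, 0.845 and 0.984 CPM in leaves. The leaf groups of both were separate and their root groups overlapped. BnaA03g20290D had root means of 25.7 and 31.3 CPM and leaf means of 2.00 and 0.687 CPM without and with Si. BnaC04g26710D had root means of 21.6 and 18.4 CPM and leaf values of 3.81, 0.485 and 0.591 CPM without Si and 0.462, 0.422 and 0.393 CPM with Si, so its leaf ratio rested on leaf no Si replicate 1.

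Called as higher in leaves than in roots without Si and lower with Si were 2 members (0.00442% of all genes tested were so called). The rule pushes the organ difference in that direction, and the change itself was not called for either gene by the interaction test (edgeR adjusted p = 1 for both). BnaA02g30740D was at 5.89, 7.78 and 7.88 CPM in roots without Si and 10.2, 10.1 and 6.17 CPM with Si. Its leaf minus root log2 difference was 0.63 (SE 0.24, edgeR adjusted p = 0.0341) without Si and -1.21 (SE 0.25, edgeR adjusted p = 0.00091) with Si. With library totals, which lowered the median of all genes by a like amount, the first was -0.13. In 4 of the 12 fits that each left out 1 library it was 0.51 to 0.67 and not called. BnaA05g26040D was at 3.40, 2.63 and 1.61 CPM in leaves without Si, 0.865, 0.986 and 1.18 CPM in leaves with Si, 2.20, 1.20 and 1.47 CPM in roots without Si and 1.97, 3.79 and 4.43 CPM in roots with Si. Its difference was 1.38 (SE 0.36, edgeR adjusted p = 0.00395) without Si and -1.01 (SE 0.36, edgeR adjusted p = 0.0256) with Si. With library totals the first was 0.64 and not called, and in 4 of the fits that left out a library the second was -0.98 to -0.78 and not called.

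The few root reads of most of the 8 leaf-limited members followed the same libraries. Their summed root level was 5.45, 22.4 and 2.497 CPM in roots without Si and 4.66, 10.9 and 1.44 CPM with Si, and 7 of the 8 were highest in root no Si replicate 2. The exception was BnaA07g30320D, at 0.881, 0.696 and 0.384 CPM without Si and 0.621, 1.95 and 0.839 CPM with Si, which was highest in root Si replicate 2. The other 423 leaf-limited genes, by the same thresholds, summed to 462, 903 and 455 CPM in roots without Si and 442, 623 and 295 CPM with Si. Of these 423 genes, 295 (69.7%) were highest in root no Si replicate 2 and 279 (66.0%) lowest in root Si replicate 3. Root levels were 0.261% of leaf levels over the 423 genes and 0.167% over the 8 members. The part of leaf RNA or of other sources in these root reads was not tested. In leaves the 423 genes had a median Si log2 ratio of -0.11, with 299 below 0.

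**Figure D5:**
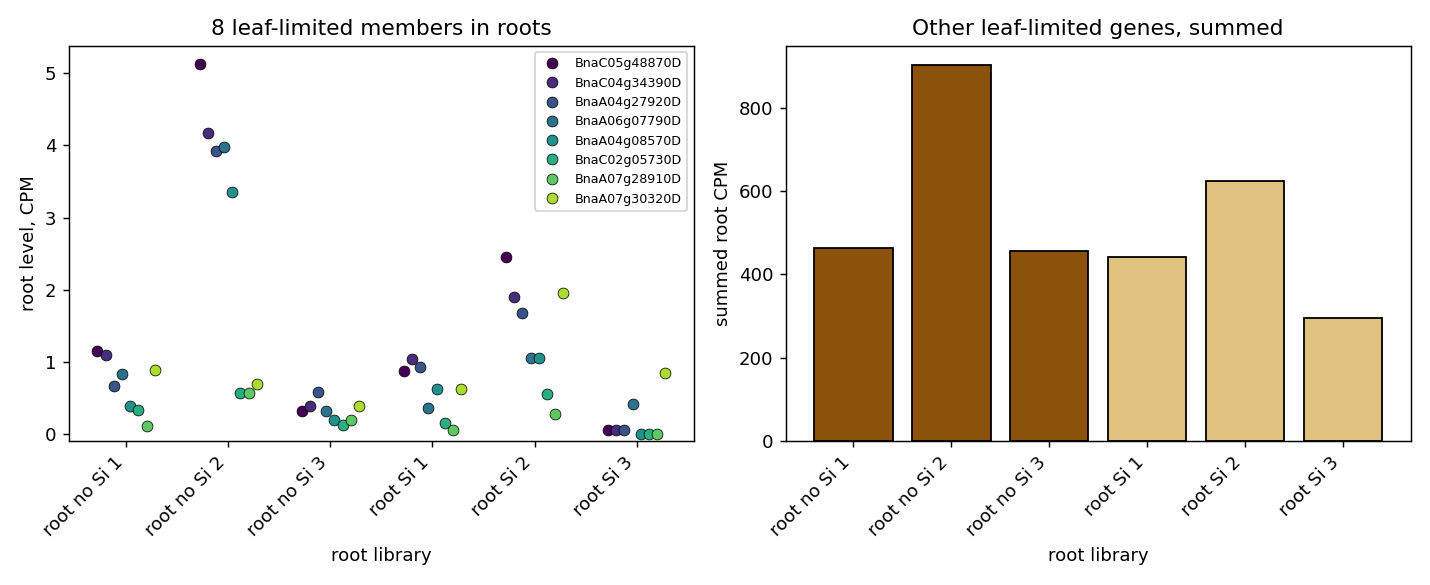
Left, root CPM of the 8 leaf-limited members in each root library (points side by side within a library); right, summed root CPM of the 423 other leaf-limited genes in the same libraries, dark bars without Si and light bars with Si. Most genes on the left and the sum on the right (903 CPM) are highest in root no Si replicate 2. Most genes and the sum (295 CPM) are lowest in root Si replicate 3. On the left BnaA07g30320D is highest in root Si replicate 2, and BnaA07g30320D and BnaA06g07790D are lowest in root no Si replicate 3. Root Si replicate 2 is the highest Si library in both panels.

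The members were spread over the genome. The A subgenome held 87 of them (58%, against 52.8% of eligible genes) and the C subgenome 63 (42% against 47.0%). Chromosome A03 held 13 and A07 held 10, and 10 were on unplaced A sequence, while the share of eligible genes that were members ran from 0.287% on A09 to 0.709% on A04 over the 18 chromosomes other than C03. With C03 left in the ranking, 18 C03 genes would have been among the 150. There were 3 pairs of members within 5 identifier places of each other. BnaC06g25840D and BnaC06g25850D were adjacent and shared a pattern, with 0 and 1 root read in all and leaf no Si replicate 1 highest. BnaC06g25840D was at 8.26, 2.84 and 3.38 CPM in leaves without Si and 1.38, 1.78 and 2.75 CPM with Si.

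The pair BnaA04g27380D and BnaA04g27400D did not share a pattern between organs. The first had 1 root read in all, and the second was at 3.47 to 5.51 CPM in roots. BnaC08g34230D and BnaC08g34270D were 4 places apart and both were measured in both organs. In leaves the first was at 9.27, 9.91 and 17.0 CPM without Si and 5.42, 6.66 and 7.62 CPM with Si, and the second at 17.1, 24.7 and 24.4 CPM against 14.5, 13.4 and 12.0 CPM.

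Within groups, some members moved closely together. Over the 48 members at 3 CPM or more in both organs, log2 levels were compared after removing the 4 group means, so that the Si and organ differences do not enter. BnaA09g19970D and BnaA04g04400D had the highest Pearson correlation (r = 0.97 over 12 libraries), followed by BnaA06g29730D and BnaA01g34990D (r = 0.96) and by BnaA10g14320D and BnaC09g36670D (r = 0.94). These values are descriptions, since the 12 points fall in 4 groups of 3 and a single high library can carry a correlation. BnaA09g19970D was at 71.6, 16.7 and 24.7 CPM in leaves without Si and 14.0, 15.4 and 15.1 CPM with Si, and BnaA04g04400D at 42.7, 15.7 and 22.9 CPM against 14.0, 14.8 and 13.5 CPM. In both genes of that pair, as in BnaA10g14320D and BnaC09g36670D, leaf no Si replicate 1 was by far the highest leaf library. The other pair differed: BnaA06g29730D (38.7, 25.3 and 38.8 CPM against 18.4, 21.3 and 16.9 CPM) and BnaA01g34990D (56.0, 33.7 and 51.0 CPM against 29.5, 30.6 and 26.5 CPM) were both lowest in replicate 2 of the no-Si leaves.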

How the data were processed

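Poly(A)-selected, stranded, paired-end libraries were made from 12 samples, per the labels' protocols. The authors deposited whole-number read counts per gene for each library, in columns for either strand and each strand. TopHat2 and Bowtie2 appear, with no version, in the submitters' processing notes. Which genome build, annotation and counter were used is not given in the sources used here. Per the file headers, unmapped (5.36% to 9.51% of reads, and 15.6% in leaf no Si replicate 2), multimapping and ambiguous reads were counted apart from the genes and stayed out of all totals.

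The reverse column was used as the sense count. CPM was taken per library total of gene counts and is not scaled for gene length, so a higher CPM of one gene than another means more reads, not more transcripts. Organ differences were fitted with edgeR 4.0.16 (R 4.3.3) over 12 libraries in 4 groups, and Si differences over the 6 libraries of an organ, using TMM scaling, the filterByExpr filter and robust quasi-likelihood, and two-sided p-values were adjusted by Benjamini-Hochberg over all genes tested (threshold 0.05). Alternatives were DESeq2 1.42.0, other scalings, filters, columns and sample sets, a planting date term, a replicate block and the removal of each library. On simulated counts with 200 changed genes, the organ fit without Si (44753 genes) found 59% of the genes changed 2-fold and 95% of those changed 4-fold, and made 11 false calls. For the leaf Si fit (44387 genes) these were 54%, 95% and 20. The changed genes were drawn only from the more highly expressed genes, and leaves and roots were given a common mean. Each gene was also given 1 spread, estimated over all 12 libraries and not over the leaf libraries. The shares therefore do not give the recovery for members at low levels or at the spread of the leaf libraries. Intervals are exact 95% intervals for counting error only. Between leaf and root libraries with Si, same-numbered libraries deviated weakly together (r = 0.19, 0.14 and 0.24). Leaf and root Si replicate 3 have different planting dates in the labels, so pairing by number was not established. The replicate block is given with the alternatives. The members and lists were chosen with earlier results of these data known.

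Members are named if they were among the 12 lowest leaf ratios, the 6 highest leaf levels, the 4 largest and 4 smallest organ differences without Si, the 3 highest and 3 lowest root ratios, the edge of the ranking or members within 5 identifier places. Others (BnaA02g30740D, BnaC06g32310D, BnaC02g19910D, BnaA07g28910D, BnaA07g30320D and the genes of the correlated pairs) were chosen after their values were seen. Marker and pathway lists by product description could not be applied, since the gene table gives no descriptions.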

Additional observations from a re-analysis of the deposited data

Results flagged for a closer look

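In 2 members every Si leaf library lay below every no-Si leaf library while every Si root library lay above every no-Si root library. The test of the difference itself, the interaction of organ and Si, was not passed by either gene (edgeR adjusted p = 1 for both), and it includes the leaf values that chose them. BnaA01g21670D had a root log2 ratio of Si to no Si of 0.95 and a leaf log2 ratio of -1.26, with root values of 1.76, 1.39 and 1.73 CPM without Si and 2.17, 3.34 and 5.27 CPM with Si. BnaC02g19910D had a root log2 ratio of 0.23 and a leaf log2 ratio of -0.69, with root values of 9.25, 8.73 and 8.004 CPM without Si and 10.4, 10.9 and 9.35 CPM with Si. Root groups separated in this direction in 7.78% of eligible genes at 1 CPM or more in roots.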

How the results depend on the processing

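Without Si, 15 members were lower in leaves than in roots in the main analysis, 31 with library totals as the scaling and 15 to 24 when 1 library was left out, 24 being without leaf no Si replicate 1. Higher in leaves were 104 to 110 when 1 library was left out, and 83 to 87 higher and 33 to 40 lower with Si. Of the leaf Si differences 0 members were called by edgeR, 23 by DESeq2 and 0 to 1 when 1 library was left out, the 1 being without leaf no Si replicate 2, and of the root ones 1 by DESeq2. The fitted leaf median ran from -1.16 to -0.94 and the root median from -0.17 to -0.05 when 1 library was left out. Ranking again without 1 leaf library, which makes the separation in leaves easier to meet, kept 35 to 104 of the 150 members: leaving out Si replicate 1, 2 or 3 kept 35, 92 and 95, and leaving out no-Si replicate 1, 2 or 3 kept 82, 52 and 104. Ranking with another pseudocount, scaling, level minimum or column kept 121 to 144, and with C03 genes 132. BnaA02g30740D changed sign without Si under library totals, to -0.13 (edgeR adjusted p = 0.613). Of 608 alternatives for single organ differences, 10 lost the call, this one included. With a planting date term the leaf median was -1.08, and the rule favoured this sign by placing leaf Si replicate 3 below every no-Si leaf library. The cause of these changes was not tested. Replicate numbers were not shown to pair libraries between organs with Si (correlations of same-numbered libraries from 0.14 to 0.24) or without Si (-0.03 to 0.38). Even so, 4 of 6 leaf libraries were best matched by the root library of their own number, among them all 3 with Si. Differently numbered pairs of organs with Si ran from -0.16 to -0.0005. Nor were numbers shown to pair leaf treatments (-0.16 to 0.34, 1 of 3 best matched by its own number) or root treatments (0.10 to 0.19, 2 of 3). With the replicate block, 108 members were higher and 19 lower in leaves without Si, 88 and 39 with Si, 0 were called for Si in leaves or roots, and the leaf median was -1.003. Gene totals limit what roots can show for the 27 members with 12 root reads or fewer.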

Other observations

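Reads on the opposite strand made up 0.294% of the members' stranded counts, against 0.531% over all genes, and passed 10% in 2 members. In BnaA07g11560D they were 43.9%, with 31, 50 and 26 opposite-strand counts in leaves without Si and 61, 63 and 23 with Si, while its sense level was 4.77, 2.70 and 3.60 CPM without Si and 2.08, 2.21 and 1.57 CPM with Si. The opposite-strand counts of this gene overlapped between treatments. In BnaA01g10740D they were 16.0%, from 15, 0 and 1 counts in leaves without Si and 3, 2 and 0 with Si.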
